A study of Mus musculus with 16 samples.

Results

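Dietary vitamin A crosses the jejunal epithelium through a short chain of proteins, and the RNA of 8 of them was examined here. Scarb1 takes up carotenoids at the brush border, Bco1 cleaves them to retinal, Isx represses the genes of both, Rbp2 carries retinol and retinal inside the enterocyte, Lrat makes retinyl esters for export, Rdh7 and Aldh1a1 oxidize retinol and retinal on the way to retinoic acid, and Dhrs3 returns retinal to retinol. The 8 genes were found by gene name among the 54532 genes of the count table, and all 8 were present in every culture. They were measured by RNA-seq in 16 differentiated enteroid cultures, in which crypts of the adult mouse jejunum grow as epithelium alone, in 4 groups of 4 cultures from 4 mice each.

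Control enteroids were labeled only as control in genotype and as untreated. The study's methods name Vil1-CreERT2;Myo5b flox/flox mice as the source of control and MYO5BΔIEC enteroids alike, with solvent in place of the inducer, while another passage of the study calls the controls healthy littermates. MYO5BΔIEC enteroids were Vil-CreERT2;Myo5b-flox/flox, and MYO5B(G519R) enteroids were Vil-CreERT2;Myo5b-flox/G519R, with 1 floxed allele and the G519R mutation on the other. Cre recombinase was driven by the villin promoter, which is active in intestinal epithelium, and was induced in both by 1 µM 4-OH-tamoxifen given in culture 24 h ahead of differentiation. MYO5BΔIEC enteroids then received either the vehicle PBS or 100 nM Compound-1, an agonist of the lysophosphatidic acid receptor LPAR5, for 2 days of differentiation. The labels name 4-OH-tamoxifen for the MYO5B-mutant groups only, so a direct effect of the drug and the loss of MYO5B cannot be told apart in a comparison with control. Between 27804968 and 40101729 reads were counted per culture, and a gene with no counts could still have been present at 0.0733 to 0.106 CPM (the level of 3 reads, counting error only). CPM stands for counts scaled to a common library size after TMM normalization.

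In the small intestine, vitamin A arrives as plant carotenoids or as retinyl esters from animal food. Retinal made from carotenoids is largely reduced to retinol, esterified by Lrat and exported in chylomicrons, while a smaller part is oxidized to retinoic acid, the ligand of the retinoic acid receptors. Retinoic acid induces Isx, a homeodomain repressor of Scarb1 and Bco1, so that vitamin A limits its own uptake.

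Promoter sequence was available for 7 of the 8 genes, from RefSeq on GRCm38.p6, and 4 of these 7 held a motif among those searched. The promoters of Bco1 and Rbp2 are shown because both held the nuclear receptor half-site AGGTCA close to the start of transcription, and because the regulators of this pathway are nuclear receptors, GATA factors and homeodomain proteins. Bco1 lies on chromosome 8 from 117095854 to 117133720 and Rbp2 on chromosome 9 from 98486115 to 98509781 (GRCm38). Each run gives the 250 bases before the RefSeq start on the strand of the gene, which for both is the plus strand. Capitals mark matches on either strand to AGGTCA or to the letters of 3 other sites. The site of CDX homeodomain factors was searched as TTTATG, that of GATA factors was searched as AGATAA, and the core that many other homeodomain proteins bind was searched as TAATTA. The search also covered the 50 bases after each start, which are not shown.
Bco1, chr8:117095615-117095864: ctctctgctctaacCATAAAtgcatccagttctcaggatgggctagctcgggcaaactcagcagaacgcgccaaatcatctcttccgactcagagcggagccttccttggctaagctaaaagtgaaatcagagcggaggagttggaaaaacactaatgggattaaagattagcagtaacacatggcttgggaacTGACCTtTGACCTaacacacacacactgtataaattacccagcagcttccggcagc
Rbp2, chr9:98490287-98490536: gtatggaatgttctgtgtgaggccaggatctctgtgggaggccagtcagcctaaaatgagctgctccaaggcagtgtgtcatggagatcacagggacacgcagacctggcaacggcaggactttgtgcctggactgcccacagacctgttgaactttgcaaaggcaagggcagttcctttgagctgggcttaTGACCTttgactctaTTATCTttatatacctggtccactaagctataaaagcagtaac

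The Bco1 promoter held 2 half-sites on the minus strand, with their first bases at -56 and -49 from the start. Together they form the pair AGGTCANAGGTCA, in which N is any base, and which 13 of 32851 promoters searched over the same window (0.0396%) held. The same promoter held a CDX site at -236. The Rbp2 promoter held 1 half-site at -58 and a GATA site at -43, both on the minus strand. Of 2 starts given for Rdh7, the upstream one had a half-site at -105 and a CDX site at -208, and the second start of Aldh1a1 had a GATA site at -32. No searched motif was found for Lrat, Dhrs3 or Isx. Single motifs were common, since 16.3% of all promoters held a half-site, 11.9% a CDX site, 11.2% a GATA site and 5.29% a homeodomain core on either strand, and a match is a description of the letters only.

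The cultures were checked against their labels before the 8 genes were compared. Myo5b, the targeted gene, was at 157, 221, 183 and 168 CPM in control cultures 1 to 4, at 138, 111, 167 and 101 in MYO5BΔIEC, at 142, 157, 176 and 141 in MYO5B(G519R), and at 148, 108, 86.8 and 101 in Compound-1-treated MYO5BΔIEC enteroids. It was lower than control in the treated group (log2 fold change -0.77, SE 0.19, adjusted p = 0.0146 by edgeR), with values of -0.55 in MYO5BΔIEC (SE 0.19, adjusted p = 0.0503 by edgeR) and -0.33 in MYO5B(G519R) (SE 0.14, adjusted p = 0.109 by edgeR), which did not pass. The count over the whole gene does not separate the deleted part from the rest, so it is a weak check of the deletion. Marker genes were then set against the labeled tissue. The enterocyte marker Sis, the sucrase-isomaltase of the brush border, was at 742 to 4781 CPM in every culture, and the proximal factor Gata4 at 103 to 195 CPM. Of the ileal list, Fabp6 reached at most 0.531 CPM, but the bile acid transporters Slc51a and Slc10a2 reached 53.9 and 16.9 CPM. Of the colonic list, Car1 had no count in any culture, while the chloride exchanger Slc26a3 was at 41.9 to 154 CPM. The 6 immune markers summed to 1.45 to 3.34 CPM, mostly Itgam, with Ptprc at most at 0.187 CPM and the macrophage marker Adgre1 without counts. The 6 fibroblast markers summed to 8.68 to 43.9 CPM, nearly all of it Vim, which is not limited to fibroblasts, and Col3a1 and Dcn had no counts.

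Control culture 1 stood apart from the 3 other controls. Across genes, its log2 levels correlated with theirs at 0.954 to 0.956, against 0.983 to 0.985 among those 3. In this culture Rbp2 was at 8.38% of the mean of the 3 other controls, Rdh7 at 20.6%, Aldh1a1 at 25.9%, Lrat at 45.3% and Bco1 at 51.4%. Isx, Scarb1 and Dhrs3 were at 94.4%, 105% and 105%. The fatty acid binding proteins of the enterocyte moved with the first 5 genes, Fabp1 being at 6.22% and Fabp2 at 11.4%. Of the 12 enterocyte markers, 10 were lower in control culture 1 than in each other control, and their summed level was 3797 CPM against 13094 to 16457 CPM, with Sis or Fabp1 the most abundant in each control culture. All 6 Paneth cell markers were also lower there. Some markers of other cells were higher. The summed tuft cell markers were at 63.9 CPM in control culture 1 against 19.0 to 24.3 CPM in the other controls. Avil was the most abundant, at 652% of their mean, and of 6 tuft markers 3 were higher there and 1 lower. The goblet sum was at 1713 CPM against 1286 to 1415 CPM, led by Fcgbp (285%), with Muc2 at 426%. Of 6 goblet markers, 3 were higher there than in each other control and 2 lower, Tff3 being at 58.1% and Agr2 at 80.8%. The fetal sum was at 182 CPM against 75.4 to 85.1 CPM, led by Ly6a (804%), with 3 of 6 markers higher there and 2 lower. Of 5 stem cell markers 3 were higher there, Lgr5 being at 197%, while their sum was lower, at 2210 CPM against 4044 to 6012 CPM, mostly Olfm4. The part of these differences in the low retinoid genes was not tested. The 8 genes are therefore given with all 4 controls and without culture 1 in both mutant groups. Every culture was left out in turn, but culture 1 was singled out after its values of these genes were seen. Leaving it out raises the control mean of the 5 genes that were low in it, so their lower fold changes follow from that choice. Those values are a description and not separate support. For other genes and lists this alternative was also chosen after seeing the data. Its values are given for named genes whose call changed and for the main lists.

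**Figure D1:**
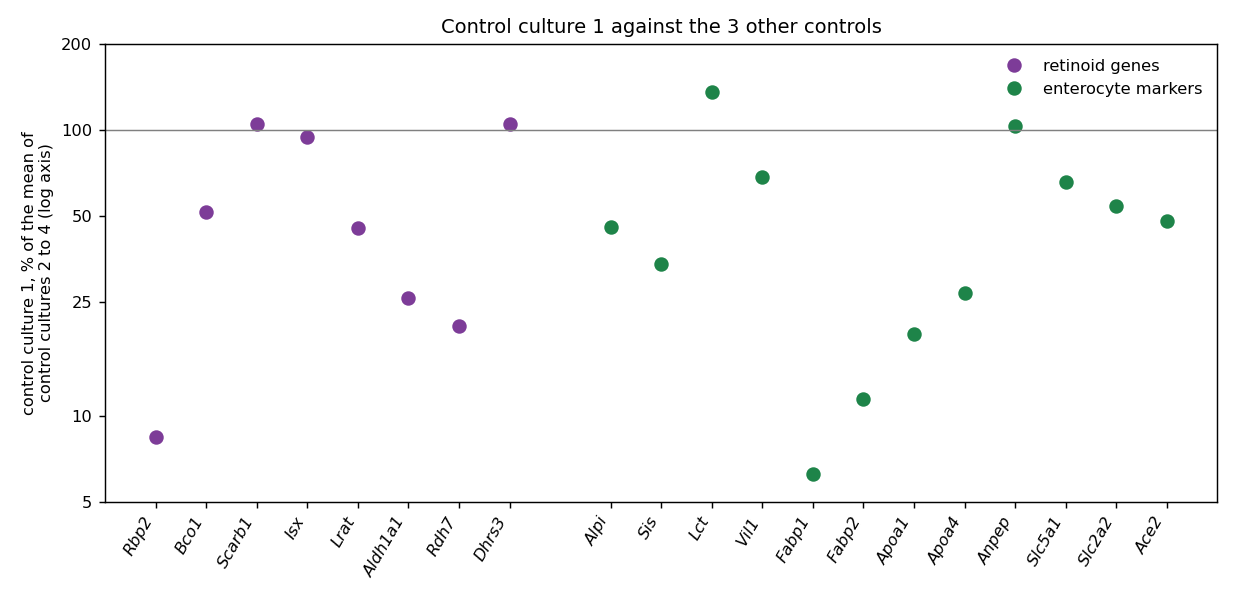
Level of each gene in control culture 1 as a percentage of the mean of control cultures 2 to 4 (log axis), for the 8 retinoid genes and the 12 enterocyte markers, with a line at 100%. Rbp2 (8.38%) lies beside Fabp1 (6.22%) and Fabp2 (11.4%), while Scarb1, Isx and Dhrs3 lie near the line.

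The 8 genes spanned a wide range of levels. In FPKM, the deposited values per kilobase of gene length that allow genes to be set side by side, control enteroids held 718 ± 440 of Rbp2 (SD, n = 4), 110 ± 54.3 of Aldh1a1, 65.3 ± 3.05 of Isx, 41.8 ± 21.0 of Rdh7, 8.87 ± 0.675 of Dhrs3, 7.49 ± 2.996 of Bco1, 5.15 ± 0.611 of Scarb1 and 1.36 ± 0.484 of Lrat. Most neighbors in this order overlapped over the control cultures. The exceptions were Isx (62.5 to 69.3 FPKM) above Rdh7 (10.7 to 57.0), Rdh7 above Dhrs3 (7.86 to 9.23), and Scarb1 (4.48 to 5.90) above Lrat (0.714 to 1.89). Rbp2 overlapped Aldh1a1 through control culture 1 alone. In the mutant groups Isx stood above Aldh1a1, at 73.8 ± 5.91 against 36.4 ± 7.43 FPKM in MYO5B(G519R) and at 75.6 ± 6.25 against 30.6 ± 2.92 FPKM in treated enteroids, with no overlap of cultures in either. In MYO5BΔIEC enteroids, at 60.6 ± 11.8 and 45.2 ± 13.2 FPKM, the cultures overlapped.

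**Figure D2:**
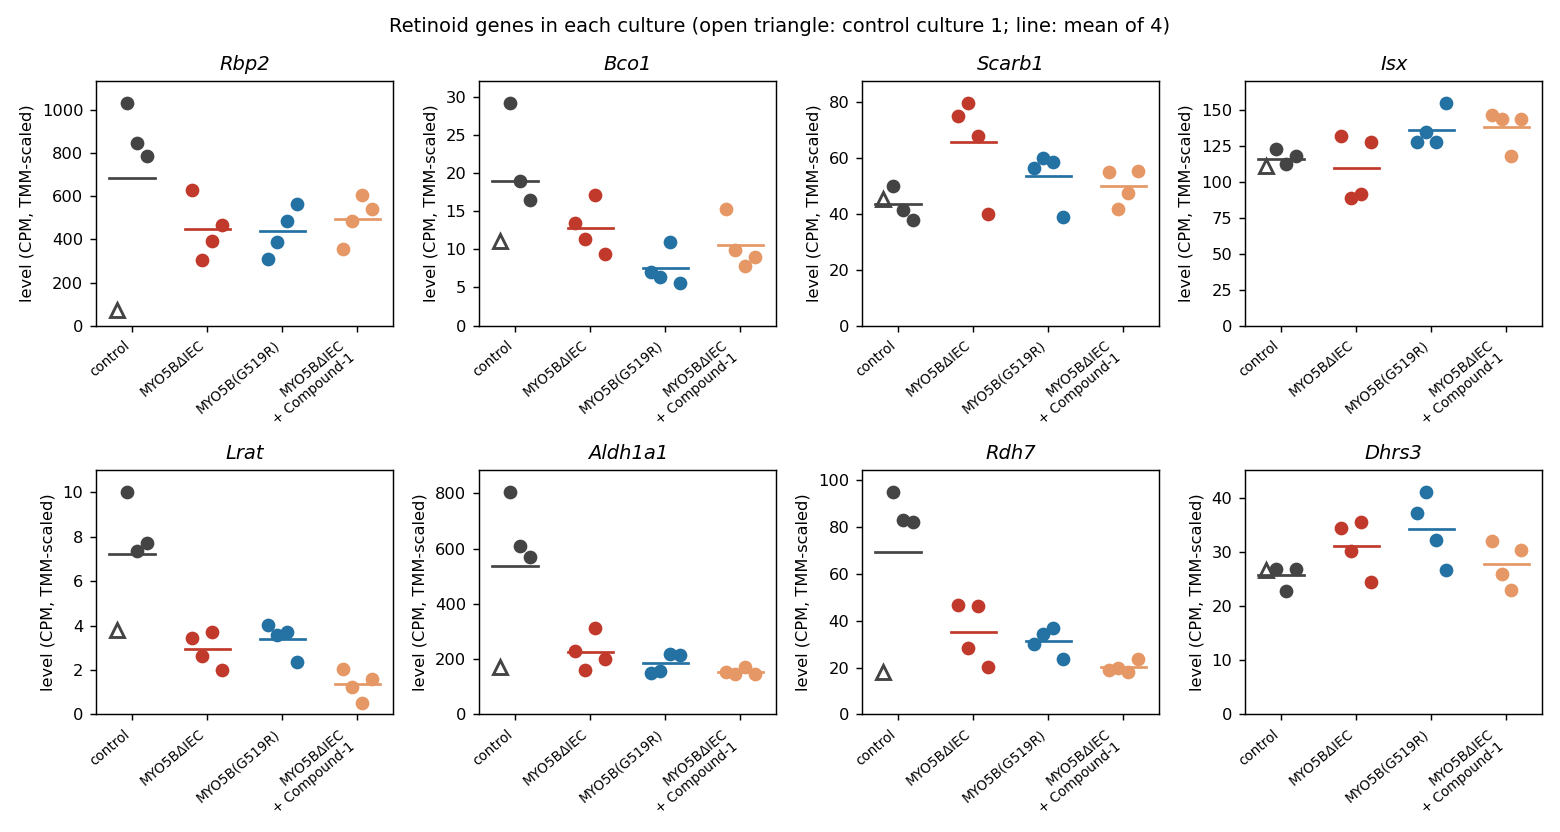
Level of each of the 8 genes in CPM (linear axes from 0) in the 16 cultures, by group, with the mean of 4 cultures as a line and control culture 1 as an open triangle. For Rbp2, Lrat, Aldh1a1 and Rdh7 all 12 mutant cultures lie below control cultures 2 to 4, while for Isx, Scarb1 and Dhrs3 control culture 1 lies beside the other controls.

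In MYO5BΔIEC enteroids 2 of the 8 genes, Lrat and Aldh1a1, fell below control and none rose, beside 27.4% of the 17951 genes tested (13.8% lower). In MYO5B(G519R) enteroids 3 fell, Bco1, Lrat and Aldh1a1, and none rose, beside 26.8% of 17829 genes (13.7% lower). The median log2 fold change of the 8 genes was -0.65 and -0.95, and that of all genes tested was -0.01 and -0.05. Without control culture 1, 5 of 8 fell in each mutant group, namely Rbp2, Bco1, Lrat, Aldh1a1 and Rdh7, beside 42% (20.8% lower) and 46.2% (22.1% lower) of the genes tested. Culture 1 was singled out after its low values of these 5 genes were seen, so that count is a description only. In bulk RNA, fewer cells that express a gene and less of its RNA in each cell cannot be told apart. The comparisons use the same 4 controls and are set side by side on that footing.

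Uptake was represented by Scarb1, the scavenger receptor that takes up carotenoids and other lipids. It was at 45.1, 49.8, 41.2 and 37.8 CPM in control cultures and at 74.7, 79.4, 67.8 and 39.7 CPM in MYO5BΔIEC cultures. The 4 MYO5B(G519R) cultures were at 56.4, 59.7, 58.4 and 38.7 CPM. In each mutant group, cultures 1 to 3 lay above every control, and culture 4 lay among the controls. The log2 fold change was 0.54 in MYO5BΔIEC (SE 0.21, adjusted p = 0.0748 by edgeR) and 0.21 in MYO5B(G519R) (SE 0.16, adjusted p = 0.349 by edgeR), and neither passed. Leaving out MYO5BΔIEC culture 4 gave 0.72 (adjusted p = 0.00625 by edgeR), which passed, as did the fit of all groups together (0.53, adjusted p = 0.0423 by edgeR). Leaving out control culture 1 gave 0.55 (adjusted p = 0.0633 by edgeR) and 0.25 (adjusted p = 0.229 by edgeR), which did not.

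Among the 11 other genes of uptake, export and chylomicron transport, 10 were tested, and in MYO5BΔIEC enteroids 3 rose and 1 fell. Cd36, a fatty acid and lipid receptor, was at 11.6, 43.8, 28.4 and 28.6 CPM in control, at 14.3, 6.24, 11.5 and 5.83 in MYO5BΔIEC and at 6.29, 5.45, 9.90 and 6.17 in MYO5B(G519R) enteroids. It fell in both, with log2 fold changes of -1.63 in the first (SE 0.40, adjusted p = 0.0142 by edgeR) and -2.10 in the second (SE 0.37, adjusted p = 0.00416 by edgeR), where no culture overlapped control. Npc1l1, the sterol importer of the brush border, rose by 1.18 (SE 0.25, adjusted p = 0.00687 by edgeR) and 0.72 (SE 0.17, adjusted p = 0.0123 by edgeR). The lipid exporter Abca1 rose in MYO5BΔIEC enteroids (0.94, SE 0.29, adjusted p = 0.0322 by edgeR), and its value in MYO5B(G519R) was 0.35 (adjusted p = 0.513 by edgeR). In that group 2 of the 10 rose and 1 fell.

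Bco1, the enzyme that splits beta-carotene into retinal, was at 11.1, 29.1, 19.0 and 16.5 CPM in control cultures. MYO5B(G519R) cultures were at 7.09, 6.36, 10.97 and 5.61 CPM, all below the lowest control, which was culture 1. Groups without overlap made up 27.1% of the genes tested in this comparison (10.8% lower and 16.3% higher). It fell there, with a log2 fold change of -1.41 (SE 0.31, adjusted p = 0.00995 by edgeR), and of -1.58 without control culture 1 (adjusted p = 0.000705 by edgeR). MYO5BΔIEC cultures, at 13.4, 11.4, 17.2 and 9.37 CPM, overlapped control, and the log2 fold change of -0.62 (SE 0.29, adjusted p = 0.141 by edgeR) passed only without control culture 1 (-0.81, adjusted p = 0.0200 by edgeR). In level per kilobase Bco1 went from 7.49 ± 2.996 FPKM in control to 5.00 ± 1.36 in MYO5BΔIEC and 2.87 ± 0.949 in the MYO5B(G519R) group.

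Isx, the repressor of Bco1 and Scarb1, had the smallest spread of the 8 genes relative to its mean among control cultures. Its levels were 111, 123, 113 and 118 CPM in control cultures and 132, 88.6, 91.4 and 128 CPM in MYO5BΔIEC cultures. MYO5B(G519R) cultures were at 128, 135, 128 and 155 CPM. All 4 MYO5B(G519R) cultures lay above all 4 controls, but the log2 fold change was 0.15 (SE 0.10, adjusted p = 0.331 by edgeR). In MYO5BΔIEC the 4 cultures lay on both sides of the controls, at -0.13 (SE 0.16, adjusted p = 0.572 by edgeR). The 95% intervals of these log2 fold changes were -0.48 to 0.21 in MYO5BΔIEC and -0.09 to 0.38 in MYO5B(G519R). With control culture 1 left out the values were -0.16 (adjusted p = 0.427 by edgeR) and 0.15 (adjusted p = 0.201 by edgeR).

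Rbp2, the retinoid binding protein of the enterocyte and the most abundant of the 8, was at 74.6 CPM in control culture 1 and at 1032, 849 and 788 CPM in the others. MYO5BΔIEC cultures were at 628, 304, 393 and 468 CPM and MYO5B(G519R) cultures at 311, 386, 487 and 564 CPM. Every mutant culture was therefore above control culture 1 and below the 3 other controls. With all controls the log2 fold changes were -0.68 (SE 0.58, adjusted p = 0.418 by edgeR) and -0.74 (SE 0.59, adjusted p = 0.381 by edgeR), with intervals of -1.95 to 0.59 and -2.04 to 0.56. Without culture 1 they were -1.05 (SE 0.21, adjusted p = 0.00248 by edgeR) and -1.09 (SE 0.18, adjusted p = 0.000882 by edgeR). The summed enterocyte markers moved with Rbp2 in control culture 1, and their part in this result was not tested.

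Ttr, the plasma partner of the retinol carrier, was the member of this role that fell in both groups. It was at 8.39, 14.6, 21.9 and 29.7 CPM in control and at 5.41, 7.12, 5.50 and 5.98 CPM in MYO5BΔIEC enteroids, which did not overlap. Its log2 fold change was -1.69 (SE 0.34, adjusted p = 0.00554 by edgeR) there and -1.28 (SE 0.35, adjusted p = 0.0255 by edgeR) in MYO5B(G519R), and of 5 binding and transport genes tested of 9 it alone passed with all controls. The count that fell was 3 in each group without control culture 1.

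Lrat, which esterifies retinol for storage and export, was the lowest of the 8 in level. It was at 3.79, 10.02, 7.37 and 7.72 CPM in control cultures and at 3.46, 2.62, 3.73 and 1.99 CPM in MYO5BΔIEC cultures, all below every control. Of the 8 genes it was the single one without overlap in this comparison, beside 26.5% of all genes tested. It fell by 1.35 on the log2 scale (SE 0.32, adjusted p = 0.0118 by edgeR). In MYO5B(G519R) enteroids, at 4.03, 3.56, 3.72 and 2.34 CPM, it fell by 1.17 (SE 0.30, adjusted p = 0.0193 by edgeR), with 1 culture above control culture 1. That call was lost without control culture 2, 3 or 4 or without MYO5B(G519R) culture 2, at edgeR adjusted p values of 0.0505 to 0.0583. With control culture 1 left out, Lrat fell by 1.57 (adjusted p = 0.000591 by edgeR) in MYO5BΔIEC and by 1.35 (adjusted p = 0.000701 by edgeR) in MYO5B(G519R). The lowest culture of control, MYO5BΔIEC and MYO5B(G519R) enteroids held 123, 66 and 75 reads of Lrat.

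Other genes listed under retinyl ester turnover moved in both directions. Of 10 tested, 2 rose and 3 fell in MYO5BΔIEC, and 2 rose and 5 fell in MYO5B(G519R) enteroids. With control culture 1 left out, 2 rose and 5 fell, and 3 rose and 6 fell. Dgat2, an acyltransferase of triglyceride synthesis, rose by 1.39 (SE 0.20, adjusted p = 0.00171 by edgeR) and 1.13 (SE 0.15, adjusted p = 0.00204 by edgeR) with no overlap in either group. Its levels were 53.2 ± 6.29 CPM (SD, n = 4) in control enteroids, 145 ± 42.7 in MYO5BΔIEC and 123 ± 22.5 in the MYO5B(G519R) group. The carboxylesterases Ces1g and Ces1d fell in MYO5B(G519R) enteroids, at -1.497 (adjusted p = 0.0200 by edgeR) and -1.43 (adjusted p = 0.0192 by edgeR). Both were at -1.05 in MYO5BΔIEC, where neither passed (adjusted p = 0.0916 and 0.103 by edgeR). Both did without control culture 1, at -1.33 (adjusted p = 0.00803 by edgeR) and -1.28 (adjusted p = 0.0261 by edgeR).

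Rdh7, a short-chain dehydrogenase that oxidizes retinol, was at 17.9, 95.04, 83.2 and 82.1 CPM in control cultures. MYO5BΔIEC cultures were at 46.5, 28.3, 46.3 and 20.1 CPM and MYO5B(G519R) cultures at 30.0, 34.3, 37.0 and 23.8 CPM. All 8 lay above control culture 1 and below the 3 other controls, as for Rbp2. The log2 fold changes of -1.04 (SE 0.45, adjusted p = 0.109 by edgeR) and -1.24 (SE 0.42, adjusted p = 0.0513 by edgeR) did not pass. Without control culture 1 they were -1.36 (SE 0.25, adjusted p = 0.00153 by edgeR) and -1.53 (SE 0.14, adjusted p = 5.0e-05 by edgeR). Rdh7 also passed in both with all groups in one fit (adjusted p = 0.0388 and 0.0208 by edgeR). With all controls it passed in MYO5B(G519R) by DESeq2 (-1.21, adjusted p = 0.0118) and without a filter (adjusted p = 0.0293 by edgeR).

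The nearest relatives of Rdh7 were scarcely expressed. The coding sequence of Rdh7 is 86.9% identical to that of Rdh1 and 85.6% to that of Rdh19, with a shared run of 133 bases in each case, and 83.9% to 85.8% identical to Rdh9, Rdh16 and Rdh16f2. Rdh1 reached at most 0.709 CPM in any culture, Rdh9 0.937, Rdh16 0.520 and Rdh16f2 3.65, and Rdh19 at most 0.0925 CPM. With all controls none of these passed in either mutant group, Rdh19 being too low to test in both and Rdh16 in MYO5B(G519R). Rdh16f2 passed in both without control culture 1, at -1.18 (adjusted p = 0.0242 by edgeR) and -1.75 (adjusted p = 0.00904 by edgeR). How reads that match several genes were treated is not given in the sources used here, so a small exchange of reads with Rdh7 is possible.

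Of 12 other retinol-oxidizing genes tested in MYO5BΔIEC enteroids, 1 rose and 3 fell, and of 11 in MYO5B(G519R), 3 fell. With control culture 1 left out, 1 rose and 5 fell in each. Adh4, an alcohol dehydrogenase active on retinol, fell in both groups, at -1.21 (SE 0.39, adjusted p = 0.0397 by edgeR) and -1.55 (SE 0.43, adjusted p = 0.0253 by edgeR). It was at 57.8 ± 27.8 CPM (SD, n = 4) in control enteroids, 26.0 ± 7.28 in MYO5BΔIEC and 20.9 ± 7.35 in the MYO5B(G519R) group, and in control culture 1 it was at 26.1% of the mean of the other controls. Adh7 fell by 2.19 in MYO5BΔIEC (SE 0.68, adjusted p = 0.0358 by edgeR), from 4.32 ± 2.73 to 0.985 ± 0.474 CPM, and was at -1.86 in MYO5B(G519R) (adjusted p = 0.0579 by edgeR). Rdh10, the main retinol dehydrogenase of retinoic acid synthesis in the embryo, went the other way. It was at 99.0, 51.5, 55.8 and 54.8 CPM in control and at 108, 106, 105 and 142 CPM in MYO5BΔIEC, an increase of 0.77 (SE 0.21, adjusted p = 0.0212 by edgeR), while its value in MYO5B(G519R) was 0.59 (adjusted p = 0.133 by edgeR). Without control culture 1, Adh7 (-2.22, adjusted p = 0.00012 by edgeR) and Rdh10 (0.87, adjusted p = 0.00702 by edgeR) passed in MYO5B(G519R) too.

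Aldh1a1, the retinal dehydrogenase that completes retinoic acid synthesis, was at 171, 805, 610 and 568 CPM in control cultures. MYO5BΔIEC cultures were at 230, 160, 311 and 201 CPM and MYO5B(G519R) cultures at 149, 156, 220 and 216 CPM. All 8 lay below the 3 other controls, and control culture 1 lay among them. It fell in both groups, with log2 fold changes of -1.31 (SE 0.40, adjusted p = 0.0319 by edgeR) and -1.63 (SE 0.39, adjusted p = 0.0140 by edgeR), and without control culture 1 of -1.61 (SE 0.22, adjusted p = 0.000222 by edgeR) and -1.90 (SE 0.17, adjusted p = 4.7e-05 by edgeR). In MYO5BΔIEC the call was lost when any of control cultures 2 to 4 or MYO5BΔIEC cultures 1, 2 or 4 was left out, at edgeR adjusted p values of 0.0715 to 0.0958.

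The paralog Aldh1a7 is 91.6% identical to Aldh1a1 in coding sequence, with a shared run of 100 bases, and its values are uncertain to that extent. It was at 28.8, 89.8, 87.2 and 82.0 CPM in control and at 40.1, 40.8, 61.7 and 32.0 CPM in MYO5BΔIEC enteroids. Its log2 fold changes of -0.78 (adjusted p = 0.107 by edgeR) and -0.80 in MYO5B(G519R) (adjusted p = 0.0737 by edgeR) did not pass. Both were -1.04 and passed without control culture 1 (adjusted p = 0.00145 and 3.5e-05 by edgeR). Aldh1a3, a second retinal dehydrogenase, rose from 0.740, 0.929, 0.277 and 0.354 CPM in control to 1.83, 2.95, 2.02 and 1.93 CPM in MYO5BΔIEC. In MYO5B(G519R) it was at 1.01, 1.86, 2.84 and 3.52 CPM, again above every control. The increases were 1.87 (SE 0.41, adjusted p = 0.00836 by edgeR) and 1.91 (SE 0.49, adjusted p = 0.0181 by edgeR). Per kilobase Aldh1a3 remained far below Aldh1a1, at 0.469 ± 0.116 against 45.2 ± 13.2 FPKM in MYO5BΔIEC enteroids. Aldh1a2 and Aldh8a1 were too low to test.

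Dhrs3, which reduces retinal to retinol and is itself induced by retinoic acid, was at 26.7, 26.8, 22.8 and 26.9 CPM in control. It was at 34.5, 30.1, 35.6 and 24.4 CPM in MYO5BΔIEC and at 37.3, 41.1, 32.3 and 26.7 CPM in MYO5B(G519R) enteroids, with culture 4 of each group among the controls. The log2 fold changes of 0.22 (SE 0.15, adjusted p = 0.312 by edgeR) and 0.33 (SE 0.15, adjusted p = 0.123 by edgeR) did not pass. Without MYO5B(G519R) culture 4 the second was 0.44 (adjusted p = 0.0347 by edgeR) and passed. With control culture 1 left out they were 0.23 (adjusted p = 0.267 by edgeR) and 0.37 (adjusted p = 0.0670 by edgeR), neither passing. The 9 other genes of retinal reduction were all tested, and 5 fell in MYO5BΔIEC and 2 in MYO5B(G519R), with none higher. Akr1b7, an aldo-keto reductase, fell in both groups, at -1.25 (SE 0.31, adjusted p = 0.0150 by edgeR) and -1.598 (SE 0.37, adjusted p = 0.0129 by edgeR), from 22.4 ± 9.40 CPM (SD, n = 4) in control to 9.80 ± 1.76 and 7.83 ± 3.13. Dhrs4 and Rdh11 fell in MYO5BΔIEC, at -1.05 (adjusted p = 0.0166 by edgeR) and -0.90 (adjusted p = 0.0448 by edgeR). The count that fell was 5 and 6 without control culture 1, where Dhrs4 and Rdh11 fell in MYO5B(G519R) as well, at -0.94 (adjusted p = 0.000285 by edgeR) and -0.90 (adjusted p = 0.000219 by edgeR). Of these 9 genes, 8 were lower in control culture 1 than in each other control.

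**Figure D3:**
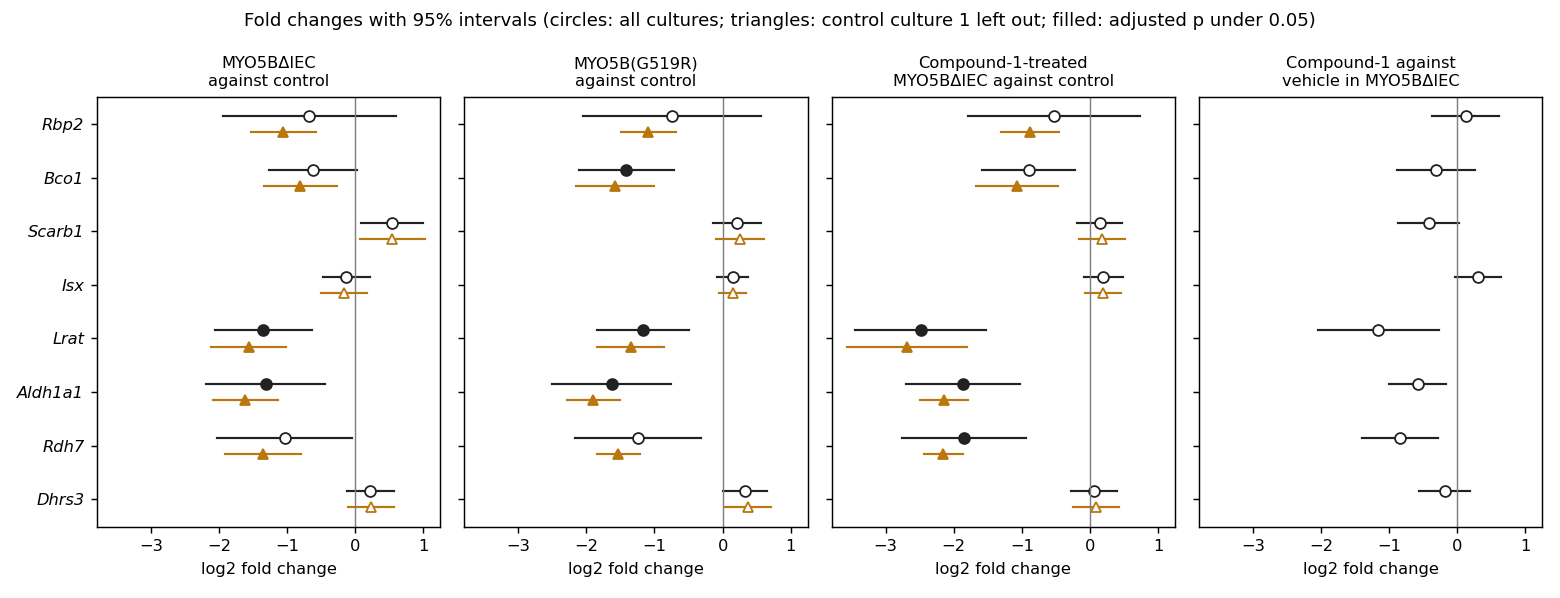
Log2 fold changes of the 8 genes with 95% intervals for 4 comparisons, with all cultures (circles) and without control culture 1 (triangles); filled symbols passed at an edgeR adjusted p under 0.05. Rbp2 in MYO5BΔIEC moves from -0.68 with a wide interval to -1.05 with a narrow one, and no gene passes for Compound-1 against vehicle.

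Of 5 receptors tested of 6, Rarg, Rara and Rxra rose in both mutant groups and none fell, each with no overlap of cultures. Of all genes tested, 13.5% and 13.1% rose, and 14.5% and 16.3% were higher without overlap. Rarg was at 4.53, 3.87, 5.70 and 3.93 CPM in control, at 13.0, 23.5, 16.8 and 13.1 CPM in MYO5BΔIEC and at 15.7, 16.9, 17.8 and 9.47 CPM in MYO5B(G519R) enteroids. The increases of Rarg were 1.83 (SE 0.24, adjusted p = 0.00148 by edgeR) and 1.65 (SE 0.23, adjusted p = 0.00222 by edgeR). Rara rose by 0.75 (adjusted p = 0.00955 by edgeR) and 0.81 (adjusted p = 0.00426 by edgeR), and Rxra by 0.74 (adjusted p = 0.0146 by edgeR) and 0.63 (adjusted p = 0.00925 by edgeR). Rxrb, at 0.05 (adjusted p = 0.873 by edgeR) and 0.31 (adjusted p = 0.0755 by edgeR), did not pass, but passed in MYO5B(G519R) without control culture 1 (0.31, adjusted p = 0.0374 by edgeR). Rarb, itself a target of retinoic acid, reached at most 1.63 CPM in any culture, with log2 fold changes of 1.54 (adjusted p = 0.251 by edgeR) and 2.25 (adjusted p = 0.0751 by edgeR), and Rxrg reached at most 0.105 CPM.

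Cyp26b1, which degrades retinoic acid, was at 3.30, 1.06, 1.57 and 0.815 CPM in control cultures. It was at 13.3, 38.9, 41.5 and 4.35 CPM in MYO5BΔIEC and at 21.4, 30.6, 39.4 and 3.05 CPM in MYO5B(G519R) enteroids, so that culture 4 was the low one in each mutant group. It rose by 3.81 (SE 0.69, adjusted p = 0.00387 by edgeR) and by 3.73 (SE 0.71, adjusted p = 0.00575 by edgeR). Cyp26a1 reached at most 0.147 CPM and was not tested. Of 11 genes listed as known targets of retinoic acid, 6 were tested in MYO5BΔIEC and 2 rose, Cyp26b1 and Hic1, and 5 were tested in MYO5B(G519R) and 2 rose, Cyp26b1 and Tgm2. None fell, and Hic1 and Tgm2 were named after their values were seen. Tgm2 rose by 0.54 (adjusted p = 0.00887 by edgeR). The count that rose was 4 of 6 and 3 of 5 without control culture 1, beside 21.2% and 24% of all genes tested. Tgm2 then passed in MYO5BΔIEC as well (0.40, adjusted p = 0.0177 by edgeR). Nrip1, also named after its values were seen, then passed in both (0.64, adjusted p = 0.00132 by edgeR, and 0.54, adjusted p = 0.00154 by edgeR).

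Regulators of enterocyte genes, several of which act on Isx, were counted next. Of 7 tested, 2 rose in MYO5BΔIEC, and 4 rose and 1 fell in MYO5B(G519R). With control culture 1 left out, 4 rose and 1 fell in the former, and 5 rose and 1 fell in the latter. Gata4 rose by 0.46 in MYO5B(G519R) (SE 0.12, adjusted p = 0.0192 by edgeR) and was at 0.42 in MYO5BΔIEC (adjusted p = 0.0704 by edgeR). Hnf4g fell by 1.06 in MYO5B(G519R) (SE 0.26, adjusted p = 0.0143 by edgeR), from 197 ± 64.8 to 100.1 ± 20.0 CPM (SD, n = 4). Its value in MYO5BΔIEC was -0.49 (adjusted p = 0.204 by edgeR). Hnf4g (-0.70, adjusted p = 0.0134 by edgeR) and Gata4 (0.51, adjusted p = 0.0125 by edgeR) passed there too without control culture 1.

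**Figure D4:**
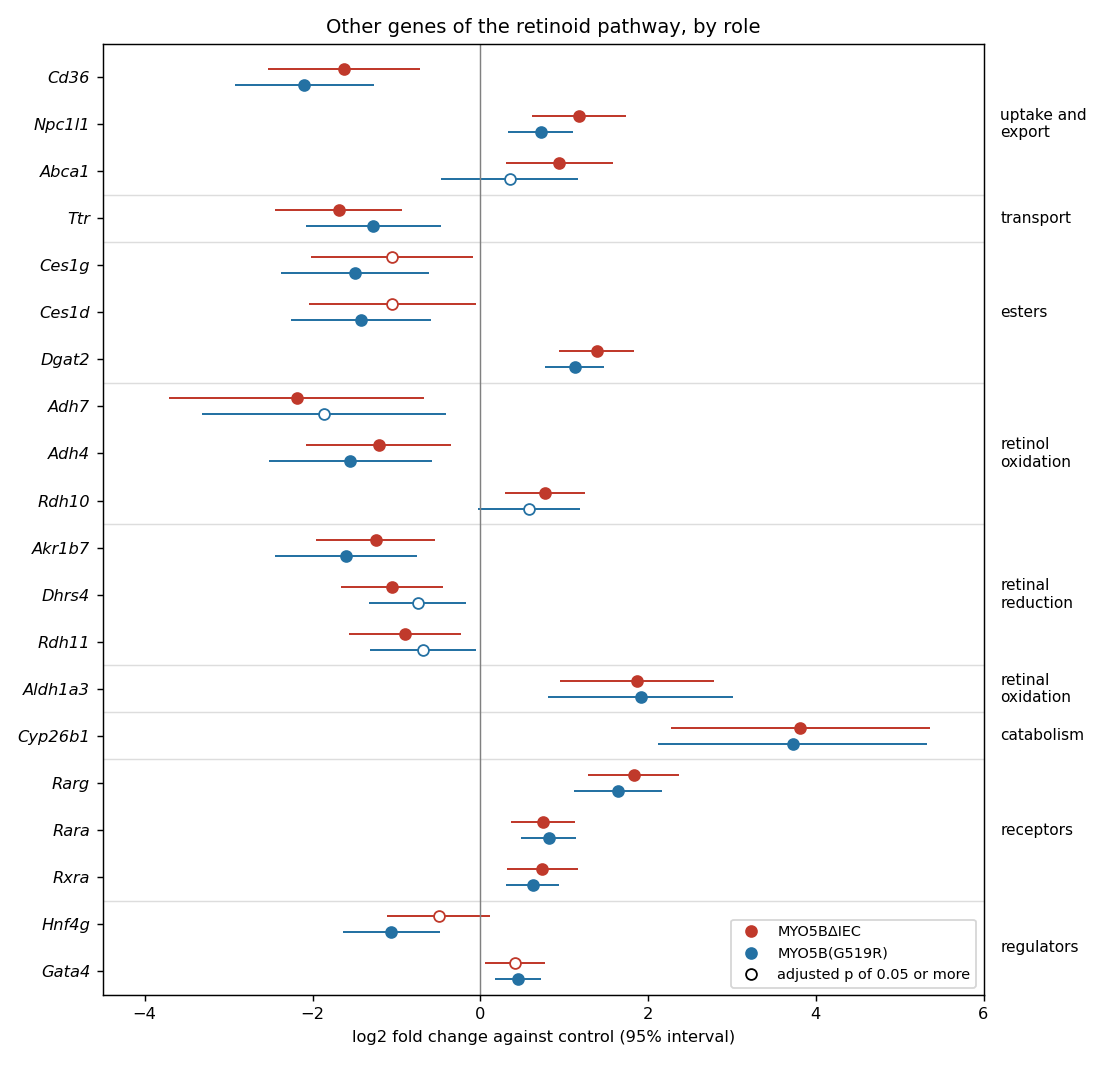
Log2 fold changes against control with 95% intervals for other pathway genes chosen by rule and grouped by role, in MYO5BΔIEC and MYO5B(G519R) enteroids; open symbols did not pass at an edgeR adjusted p under 0.05. Cyp26b1 (3.81 and 3.73), Aldh1a3 and Rarg lie to the right, while Cd36, Ttr and Akr1b7 lie to the left.

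Over the 74 other genes of the pathway, which were listed with earlier results of these cultures known, 13 rose and 13 fell of 63 tested in MYO5BΔIEC, and 13 rose and 13 fell of 62 in MYO5B(G519R). Of all genes tested, 13.5% rose and 13.8% fell in the first comparison, and 13.1% rose and 13.7% fell in the second. The medians of their log2 fold changes were 0.01 and -0.17. Without control culture 1 the count that fell became 22 and 24, and the count that rose 15 and 19, beside 20.8% and 22.1% of all genes lower and 21.2% and 24% higher. The enterocyte markers did not move as one. Of 12, Alpi, Vil1 and Anpep rose in MYO5BΔIEC and none fell, while Vil1 and Anpep rose and Sis fell in MYO5B(G519R). Without control culture 1, 2 of 12 fell in MYO5BΔIEC, Fabp1 (-1.94) and Fabp2 (-1.70), and 6 of 12 in MYO5B(G519R), and the Paneth markers that fell became 4 and 6 of 6. The summed enterocyte markers were at 11659 ± 5464 CPM (SD, n = 4) in control enteroids, 10877 ± 3528 in MYO5BΔIEC and 8260 ± 1520 in the MYO5B(G519R) group, and exact permutation tests gave two-sided p = 0.886 and 0.257, where the smallest possible is 0.0286. All 4 MYO5B(G519R) sums (6584 to 10142 CPM) lay below those of control cultures 2 to 4 and above that of control culture 1, as for Rbp2. Mitochondrially encoded genes took 6.41% to 10.4% of the reads of control cultures, against 4.16% to 6.63% for MYO5BΔIEC and 4.20% to 5.37% for MYO5B(G519R), with exact permutation p = 0.0571 and 0.0286. Of 6 Paneth markers 2 fell in each mutant group, of 6 proliferation genes 4 fell in MYO5BΔIEC and 3 in MYO5B(G519R), and of 5 fetal genes tested 3 rose in each. Of 6 goblet markers 2 rose in each while 1 and 2 fell, of 7 enteroendocrine markers 2 and 1 rose while 0 and 1 fell, and 1 of 4 tuft and 1 of 5 stem cell markers fell in each. Of the regional genes, 2 of 5 proximal and 1 of 4 ileal genes rose and 1 of 3 colonic genes fell in each group. In summed level, goblet markers (2061 against 1432 CPM) and fetal markers (330 against 107 CPM) were higher in MYO5BΔIEC than in control, and stem cell (1381 against 4146 CPM), proliferation (1222 against 1727 CPM) and colonic markers (72.3 against 132 CPM) were lower, each with the smallest possible exact permutation p of 0.0286. In MYO5B(G519R) the goblet (2083 CPM) and colonic (62.3 CPM) sums reached that p. Of 2 immune genes tested none passed, and of 2 fibroblast genes 1 rose in MYO5B(G519R) alone. The part of these differences in the retinoid genes was not tested, and leaving mitochondrially encoded genes out of the library sizes kept the counts of 2 and 3.

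Compound-1 was tested in MYO5BΔIEC enteroids only. Compared with vehicle, 0 of the 8 genes and 0 of the 18037 genes tested (0%) passed with edgeR, 1355 genes (7.51%) had an unadjusted p under 0.05, and DESeq2 called 91 genes and none of the 8. No member was without overlap between the treated and vehicle groups, beside 2.82% of genes tested. Lrat was at 2.06, 1.25, 0.513 and 1.58 CPM in treated cultures, and the difference from vehicle was -1.16 (interval -2.04 to -0.27, unadjusted p = 0.0149, adjusted p = 0.560 by edgeR). Rdh7, at 19.0, 19.9, 17.9 and 23.6 CPM, differed by -0.84 (interval -1.39 to -0.29, unadjusted p = 0.00643, adjusted p = 0.532 by edgeR). Aldh1a1, at 153, 145, 170 and 147 CPM, differed by -0.58 (interval -1.001 to -0.16, unadjusted p = 0.0111, adjusted p = 0.560 by edgeR). These 3 genes thus lay further from control in the treated cultures than in the vehicle cultures, on average, but not past the test.

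For the other 5 genes the interval of the difference included 0. Scarb1, at 54.9, 41.5, 47.4 and 55.1 CPM in treated cultures, differed by -0.42 (interval -0.87 to 0.03) and Isx, at 147, 144, 118 and 144 CPM, by 0.30 (interval -0.04 to 0.65). Bco1, at 15.3, 9.96, 7.79 and 9.05 CPM, differed by -0.31 (interval -0.88 to 0.26). Rbp2, at 355, 484, 605 and 543 CPM, differed by 0.13 (interval -0.37 to 0.62). Dhrs3, at 32.1, 26.0, 23.0 and 30.4 CPM, differed by -0.19 (interval -0.56 to 0.19). Of 64 other pathway genes tested, 3 did not overlap between treated and vehicle cultures, and none passed. Aldh1a7, at 28.4, 28.9, 24.2 and 26.8 CPM, lay below all 4 vehicle cultures and differed by -0.72 (interval -1.16 to -0.29, adjusted p = 0.532 by edgeR). Fabp5, a fatty acid binding protein that also carries retinoic acid, was named after its values were seen. It was at 28.5, 34.4, 67.2 and 67.4 CPM against 24.98 to 27.9 CPM with vehicle and differed by 0.84 (interval 0.28 to 1.41, adjusted p = 0.542 by edgeR). Rdh10 was at 146, 179, 460 and 234 CPM, above all 4 vehicle cultures, and differed by 1.12 (interval 0.45 to 1.79, adjusted p = 0.532 by edgeR).

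Set against control, treated MYO5BΔIEC enteroids had 3 of the 8 genes lower and none higher, beside 29.4% of 17937 genes tested (13.7% lower). These were Lrat at -2.48 (SE 0.43, adjusted p = 0.00493 by edgeR), Aldh1a1 at -1.87 (SE 0.38, adjusted p = 0.00722 by edgeR) and Rdh7 at -1.85 (SE 0.41, adjusted p = 0.00970 by edgeR). Lrat and Aldh1a1 did not overlap control, beside 27.6% of genes tested. Bco1 was at -0.90 (SE 0.31, adjusted p = 0.0509 by edgeR) and Rbp2 at -0.53 (adjusted p = 0.522 by edgeR). Without control culture 1 both fell, at -1.07 (adjusted p = 0.0109 by edgeR) and -0.88 (adjusted p = 0.00524 by edgeR), with 42.1% of genes called. With all controls Bco1 also passed by DESeq2 (adjusted p = 0.0219). By edgeR it passed with another filter, no filter and all groups in one fit (adjusted p = 0.0481, 0.0366 and 0.0259). The summed enterocyte markers were at 7192 ± 1069 CPM (SD, n = 4) in treated cultures, with an exact permutation p of 0.143 against control and 0.114 against vehicle. Fetal markers summed to 978 ± 795 CPM, against 107 in control and 330 in vehicle cultures, with an exact permutation p of 0.0286 for each. The treated cultures were at 570, 409, 2148 and 786 CPM, and without treated culture 3, the high one, left out after seeing the data, the mean was 588 CPM. The share of mitochondrially encoded reads (4.83%) and the stem cell (1173 CPM), proliferation (1166 CPM) and colonic (75.3 CPM) sums were lower than control and the goblet sum (3434 CPM) higher, with the same exact p. Their part in these values was not tested. In treated cultures too, Olfm4 led the stem cell sum and Slc26a3 the colonic sum.

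The mutant groups were also compared with each other. Of the 8 genes 0 passed, beside 1 of 17943 genes (0.00557%) with edgeR and 4 with DESeq2, and 772 genes (4.3%) had an unadjusted p under 0.05. None was without overlap, beside 1.9% of genes tested. Bco1 had the largest difference, -0.79 in MYO5B(G519R) relative to MYO5BΔIEC (interval -1.35 to -0.24, unadjusted p = 0.00898, adjusted p = 0.838 by edgeR). The 7 others lay between -0.32 for Scarb1 (interval -0.79 to 0.15) and 0.28 for Isx (interval -0.02 to 0.59). Bco1 passing against control in MYO5B(G519R) and not in MYO5BΔIEC is therefore not shown to differ between them.

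The genes most like each of the 8 over the 16 cultures were found by the root mean square difference of mean-centered log2 CPM, as a description. Rbp2 was closest to Dynlt1b (0.27) and Gsta1 (0.35), against a spread of 0.83 of its own. Aldh1a1 was closest to the carboxylesterase Ces1f (0.23) and the glucuronosyltransferase Ugt2b5 (0.23), with a spread of 0.78. Rdh7 was closest to Nat8f1 (0.26) and again to Ces1f (0.26), with a spread of 0.79. Lrat was closest to the monoamine oxidase gene Maob (0.37) and to 1500035N22Rik (0.38), with a spread of 0.997. Bco1 was closest to the amino acid transporter Slc6a20a (0.32) and to B2m (0.32), with a spread of 0.61. Scarb1 was closest to Appl2 (0.16) and B4galnt2 (0.17), with a spread of 0.33. Isx was closest to Pola2 (0.12) and Zfp746 (0.12), with a spread of 0.22. Dhrs3 was closest to B4galnt2 (0.15) and Bri3bp (0.15), with a spread of 0.24.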

How the data were processed

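Alignment of the read pairs by the authors used STAR 2.5 and GRCm38. They used TopHat to parse the alignments, counted reads per gene with HTSeq 0.6.1 and compared groups with DESeq2. The deposited counts were used as given. The deposited FPKM values, made by the authors from counts and gene length, served only to set genes side by side and for limma. Strand use in counting is not given in the sources used here, and overlapping genes held at most 403 reads over all cultures against 140963 of Aldh1a1. Groups came from the sample labels. Culture numbers were not treated as pairs in the main fits. Correlations of same-number cultures ran from -0.18 to 0.38, and those between the mutant groups were all positive (0.027 to 0.38).

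In R 4.3.3, edgeR 4.0.16 compared groups 2 at a time by its quasi-likelihood F test with TMM scaling, keeping genes that reached 10 counts in 2 or more cultures of the pair. P values were adjusted by Benjamini and Hochberg over all genes tested, with a threshold of 0.05. Intervals are 95%. Alternatives were DESeq2 1.42.0, its size factors within edgeR, other filters, mitochondrially encoded genes left out, all groups in one fit, the replicate block, limma 3.58.1 on log2(FPKM + 1) and log2(FPKM + 0.1), removal of a gene length trend, and each culture left out in turn. Single values were compared by exact permutation tests.

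The 8 genes and the lists were chosen with earlier results of these data known. From each role, up to 3 genes with the largest change among those past the threshold in MYO5BΔIEC or MYO5B(G519R), with a mean of at least 1 CPM, are named, as are all receptors and close paralogs and the 2 genes most like each of the 8. The lists were enterocyte, tuft, goblet, Paneth, enteroendocrine and stem cell markers, proliferation, fetal, fibroblast, immune, proximal, ileal and colonic genes, and pathway genes by role. Promoters are from RefSeq (GRCm38.p6). Proteins were not used here. A few genes that the rule names are not reported here.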

Additional observations from a re-analysis of the deposited data

Results flagged for a closer look

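In groups of 4 cultures, 17 of the 150 groups examined held 1 culture whose gap to the nearest other culture was large against the whole range of the group (Dixon's 95% critical value), where chance gives about 1 in 20 groups. Among the 8 genes, Rdh7 was low in control culture 1 at 17.89 CPM (others 82.1 to 95.04), Dhrs3 in control culture 3 at 22.78 CPM (26.7 to 26.9), Scarb1 in MYO5B(G519R) culture 4 at 38.72 CPM (56.4 to 59.7) and Isx in Compound-1 culture 3 at 118.1 CPM (144 to 147).

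Control culture 1 was also low for Rdh11 at 87.99 CPM and Aldh1a7 at 28.84 CPM, and high for Rdh10 at 98.97 CPM. In MYO5BΔIEC enteroids the highest culture stood apart for Abca1 at 31.04 CPM, Rdh10 at 142.2 CPM, Dhrs4 at 128.5 CPM, Aldh1a3 at 2.952 CPM and Rdh16 at 0.5198 CPM. In MYO5B(G519R) culture 3, Hnf4g was high at 129.8 CPM and Rdh9 at 0.9374 CPM. Gata4 was low in Compound-1 culture 1 at 142.9 CPM, and Rarb was high in control culture 3 at 0.3391 CPM and in Compound-1 culture 4 at 0.919 CPM.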

How the results depend on the processing

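Among cultures left out 1 at a time, control culture 1 had the largest effect on the count of the 8 genes called. Leaving out 1 culture at a time moved the count of the 8 genes called from 2 to between 1 and 5 in MYO5BΔIEC, from 3 to between 2 and 5 in MYO5B(G519R) and from 3 to between 3 and 5 in treated enteroids against control, and the upper ends were reached without control culture 1. All genes called then ranged from 2963 to 7474, 2880 to 8146 and 2957 to 7459. For MYO5BΔIEC the count of the 8 was 4 with all groups in one fit, which added Scarb1 (higher) and Rdh7 (lower), 1 with limma on log2(FPKM + 1), 1 with log2(FPKM + 0.1) and 1 with the replicate block, where Aldh1a1 was at -1.16 (adjusted p = 0.0843 by edgeR). Culture numbers were not treated as pairs in the main fits. Same-number correlations ran from -0.18 to 0.38, and between the mutant groups all 4 were positive (0.027 to 0.38). For MYO5B(G519R) cultures 1, 3 and 4 the closest MYO5BΔIEC culture was the one of the same number. Compound-1 against vehicle gave 0 genes with edgeR, 91 with DESeq2 and 12 without a filter, and the mutant groups against each other 1, 4 and 2, or 0 to 2 with 1 culture left out. The sign turned for Isx in MYO5BΔIEC (0.029) and Scarb1 in treated against control (-0.081) with the gene length trend removed, for Dhrs3 in treated against control without treated culture 1 (-0.024), and for Rbp2 against vehicle without MYO5BΔIEC culture 2 (-0.018, the others reaching 0.32). Rbp2 between the mutant groups turned without MYO5B(G519R) culture 1 (0.074) or MYO5BΔIEC culture 1 (0.14), and the lowest value was -0.20. The causes were not tested.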
